A study of Mus musculus with 4 samples.

Results

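The antioxidant and glutathione genes examined here are a list of 39 genes for enzymes and binding proteins that remove superoxide, peroxides, reactive metabolites and free metal, and for the regulator pair that controls many of them. Members were chosen by gene symbol: every probe set annotated with exactly 1 of the 39 symbols was taken, which gave 60 of the 22626 probe sets that are not controls. These probe sets covered 34 of the 39 genes. Of the 60, 49 probe sets for 33 genes were called present on at least 2 of the 4 arrays, whatever the group, and were tested. No value was used for Prdx1, Prdx5, Prdx6, Ftl1 and G6pdx, which had no probe set with that symbol alone. Sod3, the secreted superoxide dismutase, was called absent on all 4 arrays by both of its probe sets.

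The RNA came from mouse embryonic fibroblasts (MEFs), primary cells grown from mouse embryos, and was hybridised to Affymetrix MOE430A arrays, 1 per sample. The 2 mTert samples had received a pBabePuro retrovirus carrying Tert, the catalytic subunit of mouse telomerase, and the 2 control samples the same vector without insert. All 4 samples therefore carry a retroviral vector with a puromycin resistance gene. The labels give neither the strain, the passage nor the number of embryos, and do not say what the numbers 1 and 2 in the sample titles stand for or whether the samples of a group were separate cultures. A p-value here therefore reflects the spread among these 4 arrays and cannot be taken to stand for the spread among separate cultures or embryos.

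Most of these genes act in linked chains. Superoxide dismutases turn superoxide into hydrogen peroxide, which catalase, glutathione peroxidases and peroxiredoxins then reduce, while glutathione is built by glutamate-cysteine ligase and glutathione synthetase and kept reduced by glutathione reductase. Glutathione transferases couple glutathione to reactive compounds, and metallothioneins and ferritin hold zinc, copper and iron. Many of the genes are transcribed through NRF2, the product of Nfe2l2, which binds antioxidant response elements and is kept low by KEAP1 until oxidants or electrophiles modify that sensor. In fibroblasts this system sets how cells cope with the oxygen and serum of culture.

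The arrays had between 51.6% and 54.4% of probe sets called present, and the labelled cRNA was 15 µg on both mTert arrays and control 2 but 5 µg on control 1. Signals are scaled, in arbitrary units, each difference is in log2 units, followed by its standard error (SE) in the limma model, and p-values are adjusted over all 12396 tested probe sets (Benjamini-Hochberg). Tert had signals of 1165 and 845 on mTert 1 and mTert 2, called present, against 128 and 84.7 on control 1 and control 2, called absent, which is at least 9.53-fold higher (limma adjusted p = 0.188, so the introduced gene itself missed the threshold). All 16 measured fibroblast markers were called present on every array. Of 24 macrophage markers, 20 and 22 were present on mTert 2 and control 2, against 11 and 12 on mTert 1 and control 1, with summed signals of 26160 and 25796 against 9068 and 7766. Of the 20 tested macrophage markers 19 were called higher on arrays numbered 2, and 8 of these had no present call on an array numbered 1, so that they were tested only through the arrays on which they were high. C1qa, a complement gene of macrophages, had 1395 and 1189 there, against 39.8 on each array numbered 1. Of the 16 fibroblast markers only Thy1, a surface protein, was called between arrays numbered 2 and 1. It was lower by 0.68 on arrays numbered 2 (limma adjusted p = 0.0128), and the others went both ways. Of 2 tested adipocyte markers, Lpl, a lipase, was higher there by 1.08 (limma adjusted p = 0.00225), while Fabp4 stood at 0.05. In these bulk samples fewer cells of a type and less RNA per cell cannot be told apart.

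The comparison of mTert with control asks whether fibroblasts that express the telomerase subunit differ in this defence system. None of the 33 tested members passed limma, and the adjusted p was 1 for each. At an unadjusted p of 0.05 the count was 0 of 33, against 162 of 7387 genes, or 2.19%. Over all genes 0% were called (260 of 12396 probe sets had an unadjusted p under 0.05). With the array number as a second term limma called 18 probe sets, or 0.145%, Tert among them with an adjusted p of 5.31e-08 and none of the 33 members. Counted by the probe set with the highest mean signal, 20 members had a higher mean and 13 a lower mean in mTert. The median log2 difference was 0.04 for members and 0.0078 for all 7387 genes tested, and member differences ran from -0.29 for Gsta4 to 0.46 for Mgst3. The typical size of a difference, its median without sign, was 0.092 for members and 0.094 for all genes.

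The mTert and control arrays did not overlap for 6 members, 5 higher (Mgst1, Mgst3, Sod2, Gstp1, Keap1) and 1 lower (Hmox1) in mTert. That is 18.2% of members, where 25.5% of all genes tested did not overlap (13.8% higher and 11.7% lower). With 2 arrays against 2, an exact permutation test of any single value cannot go below a two-sided p of 0.333.

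**Figure D1:**
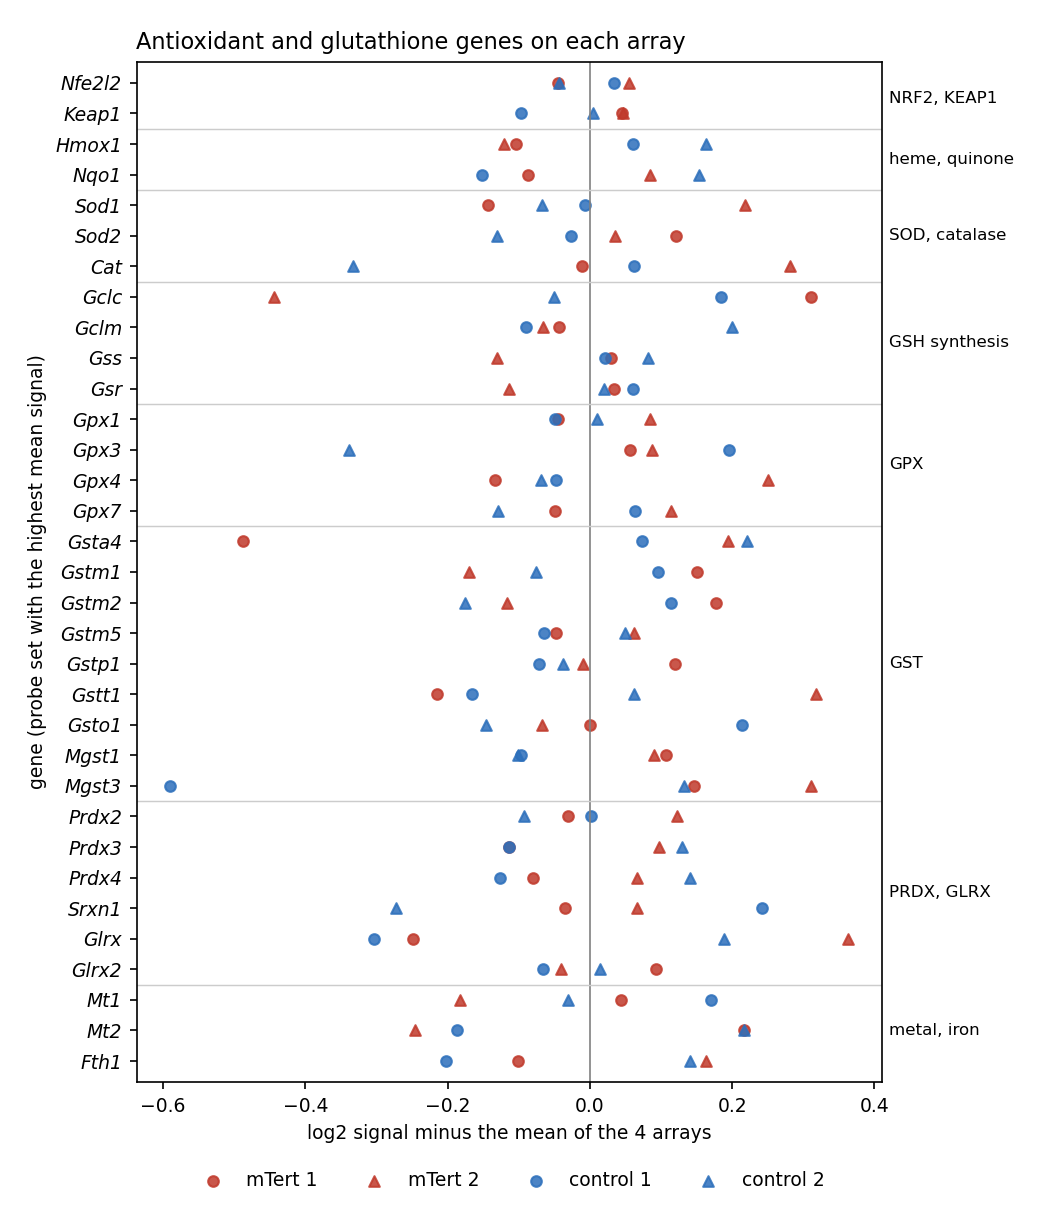
Each point is the log2 signal of 1 gene on 1 array minus its mean over the 4 arrays, for the 33 tested genes grouped by role (red for mTert, blue for control, circles for number 1, triangles for number 2). The mTert and control points overlap for 27 of the 33 genes, while for genes such as Glrx and Fth1 the triangles lie to the right of the circles.

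**Figure D2:**
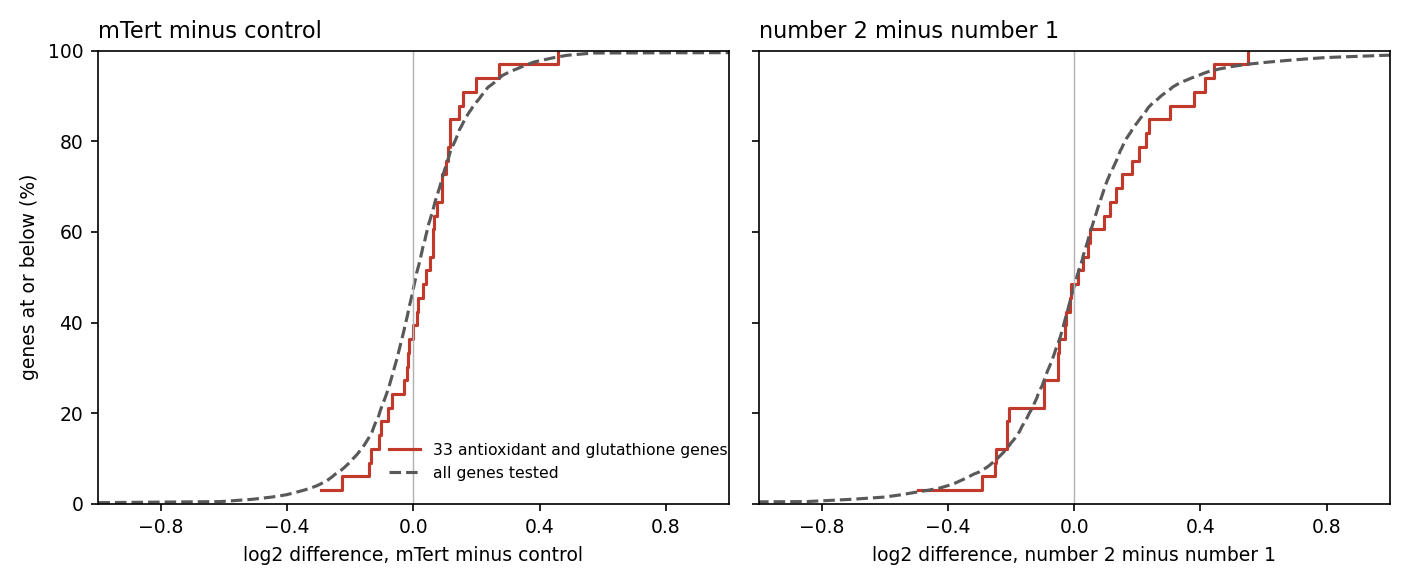
The solid line gives the share of the 33 antioxidant and glutathione genes (vertical axis, %) at or below each log2 difference (horizontal axis), and the dashed line the share of all 7387 genes tested, for mTert minus control (left) and number 2 minus number 1 (right). The medians are 0.04 for the genes listed and 0.0078 for all genes on the left, and 0.012 and 0.0079 on the right.

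The titles number the arrays 1 and 2 in each group, and arrays numbered 2 were set against arrays numbered 1, each number holding 1 mTert and 1 control array. By the probe set with the highest mean signal, 0 of 33 members were called, against 1.85% of all genes tested. The unadjusted limma p was under 0.05 for 7 of them, or 21.2%, against 10.8% of all genes. On the higher side these were Fth1, Glrx, Prdx4 and Gstt1, and on the lower side Gstm2, Gclc and Mt1. Over all members 17 had a higher and 16 a lower mean on arrays numbered 2, with a median of 0.012 against 0.0079 for all genes. The arrays did not overlap for 15 members, 9 higher and 6 lower, or 45.5%, where 40.3% of all genes did not overlap (21.9% higher and 18.4% lower). The size of a difference without sign had a median of 0.15 for members and 0.118 for all genes.

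Among the 16 further probe sets of these genes, 1 was called, a probe set of Prdx2 (1430979_a_at). Over all probe sets limma called 192 of 12396, or 1.55%, 131 higher and 61 lower. Without mTert 2 the count was 80 and without control 2 it was 91. The macrophage markers given above moved with this comparison, and their part in the values of these genes was not tested.

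**Figure D3:**
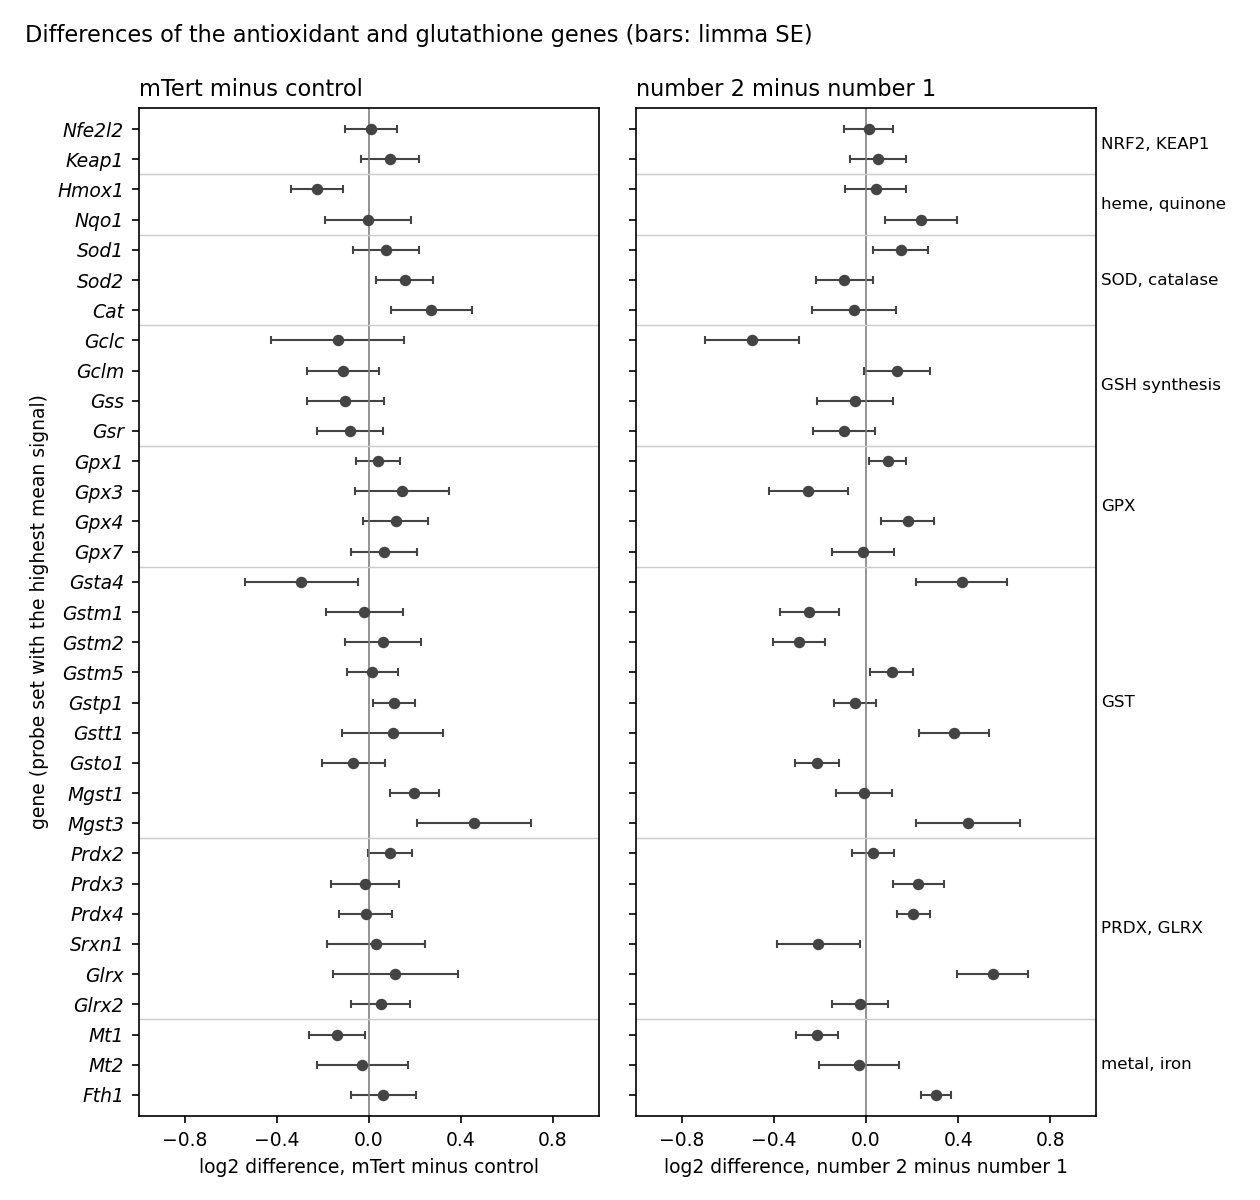
Points are log2 differences of the 33 genes, by role, and bars the SE of limma, for mTert minus control (left) and number 2 minus number 1 (right). Hmox1 at -0.225 and Mgst3 at 0.46 stand among the farthest from 0 on the left, and Glrx at 0.55, Gclc at -0.495 and Fth1 at 0.30 on the right.

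The regulators differed little in either comparison. Nfe2l2, the transcription factor NRF2, had signals of 1206 and 1293 on mTert 1 and mTert 2, against 1274 and 1207 on control 1 and control 2, a log2 difference of 0.01 (SE 0.11). The 2 groups overlapped, and the difference between arrays numbered 2 and 1 was also 0.01 (SE 0.11). Keap1, the adaptor that hands NRF2 to a ubiquitin ligase, had 802 and 803 in mTert, against 727 and 780.4 in control, a difference of 0.09 (SE 0.12). Its mTert signals lay above both controls, but its other probe set stood at -0.0017. Between arrays numbered 2 and 1 Keap1 differed by 0.05 (SE 0.12), with overlap.

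NRF2 binding sites were looked for as letters in the 250 bases before the transcription start. RefSeq promoter sequences (GRCm38.p6) matched 33 of the 39 members, and Gclc, Gsr, Gsta4, Hmox1, Prdx6 and Sod3 had no entry. The core of the antioxidant response element, TGACNNNGC on either strand, was found before at least 1 start of 8 of the 33 (G6pdx, Gclm, Gstm5, Mgst1, Mt2, Nfe2l2, Prdx1, Sod1). Over all 27025 genes with a sequence it was found for 3112, or 11.5%. The core of the metal response element, TGCACNC or TGCGCNC, was found for 11 of the 33 and for 23.8% of all genes. Neither count was tested, and many of the listed genes are NRF2 targets, as given above. A match is a description of letters and not a shown site. Upstream sequences are given for 3 of the 8 genes with the antioxidant response element core. They belong to a subunit of the enzyme that starts glutathione synthesis, to a transferase whose groups did not overlap, and to a metal-binding protein. The sequences run 5′ to 3′ on the plus strand, which is the strand of the gene. Capitals mark the antioxidant response element core only, which in Gclm and Mgst1 is on the opposite strand.
Gclm, chr3:122245307-122245556: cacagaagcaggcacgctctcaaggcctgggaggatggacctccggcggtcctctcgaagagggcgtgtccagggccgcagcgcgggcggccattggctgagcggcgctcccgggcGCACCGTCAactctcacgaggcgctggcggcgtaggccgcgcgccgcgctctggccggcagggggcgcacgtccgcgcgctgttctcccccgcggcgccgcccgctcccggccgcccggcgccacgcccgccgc
Mgst1, chr6:138140277-138140526: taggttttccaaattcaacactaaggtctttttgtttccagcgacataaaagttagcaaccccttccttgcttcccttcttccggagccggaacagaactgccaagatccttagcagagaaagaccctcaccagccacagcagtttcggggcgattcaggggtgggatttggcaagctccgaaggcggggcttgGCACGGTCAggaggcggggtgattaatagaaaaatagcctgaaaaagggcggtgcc
Mt2, chr8:94172368-94172617: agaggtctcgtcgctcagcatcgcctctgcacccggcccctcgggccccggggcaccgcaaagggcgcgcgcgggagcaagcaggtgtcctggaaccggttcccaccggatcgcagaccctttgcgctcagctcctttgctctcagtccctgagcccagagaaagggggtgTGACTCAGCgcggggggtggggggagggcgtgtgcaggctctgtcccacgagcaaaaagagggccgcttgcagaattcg
The antioxidant response element core begins 134 bases before the start in Gclm, 56 in Mgst1 and 79 in Mt2. Another annotated start of Mgst1, with the upstream bases chr6:138141337-138141586, had no match.

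The 6 tested genes with the antioxidant response element core went both ways in mTert against control. Their differences ran from -0.11 for Gclm to 0.20 for Mgst1, 4 of them higher and 2 lower in mean, with a median of 0.013. The 23 tested members whose sequence held no such core in this window ran from -0.14 to 0.46, with a median of 0.062. For this element only TGACNNNGC was searched. The Srxn1 and Gstp1 sequences, among these 23, hold TGAGTCAGC, which the searched letters do not cover. Hmox1, Gclc, Gsr and Gsta4 had no sequence and are in neither set. Between arrays numbered 2 and 1 the medians were 0.062 with the core and -0.014 without. The split was not tested, and by these probe sets no member was called in either comparison. It therefore cannot show whether NRF2 targets moved.

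Heme and quinone enzymes are the usual readouts of NRF2. Hmox1, which breaks heme down to biliverdin, carbon monoxide and iron, had 1042 and 1030.1 on mTert 1 and mTert 2, against 1169 and 1255 on control 1 and control 2. Both mTert signals lay below both controls, by a log2 difference of -0.225 (SE 0.11), the smallest limma p of any member in this comparison at 0.0963 before and 1 after adjustment. Between arrays numbered 2 and 1 it differed by 0.04 (SE 0.13). Nqo1, which reduces quinones by a pair of electrons at once, had 275 and 310.3 in mTert, against 263 and 326 in control. The groups overlapped, the difference was -0.0024 (SE 0.19), and the probe set was called absent on mTert 1. Nqo1 had 310.3 and 326 on mTert 2 and control 2, against 275 and 263 on mTert 1 and control 1, a difference of 0.24 (SE 0.16, limma adjusted p = 0.686).

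The enzymes that dispose of superoxide and hydrogen peroxide had means on the higher side in mTert for all 3 measured genes. Cat, the catalase of peroxisomes, had 1336 and 1637 on mTert 1 and mTert 2, against 1405 and 1069 on control 1 and control 2, a difference of 0.27 (SE 0.18). Its groups overlapped: mTert 2 against control 2 gave 0.61, and mTert 1 against control 1 gave -0.07. The second Cat probe set had the same order of arrays, at 0.21 (SE 0.15). Sod2, the manganese enzyme of mitochondria, had 973 and 916 in mTert, against 878 and 816 in control, a difference of 0.16 (SE 0.12) with no overlap. Its other 2 probe sets stood at -0.06 and -0.22, so the direction was not shared within the gene. Sod1, the copper and zinc enzyme of the cytosol, differed by 0.07 (SE 0.14), with the highest signal of 2190.02 on mTert 2. A dimmer Sod1 probe set had 301 and 275 on mTert 2 and control 2, against 211 and 155 on mTert 1 and control 1, a difference of 0.67 (SE 0.20, limma adjusted p = 0.224), while the probe set with the highest mean gave 0.15.

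All 4 genes that make or reduce glutathione had lower means in mTert, each by less than its SE. The differences were -0.13 for Gclc and -0.11 for Gclm, the catalytic and modifier subunits of glutamate-cysteine ligase, -0.10 for Gss, the synthetase, and -0.08 for Gsr, the reductase. In each of the 4 genes the groups overlapped. Gclc had 147 and 194 on mTert 2 and control 2, against 249 and 228 on mTert 1 and control 1, a difference of -0.495 (SE 0.20) between the numbers. It was called absent on mTert 2, the limma adjusted p was 0.442, and the other Gclc probe set stood at -0.07.

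Glutathione peroxidases reduce hydrogen peroxide and lipid peroxides with glutathione, and the 4 members differed by 0.04 to 0.14 between mTert and control, with overlapping groups in each. Gpx4, the enzyme that reduces peroxides within membranes and limits ferroptosis, had 2542 and 3318 on mTert 1 and mTert 2, against 2697 and 2658 on control 1 and control 2. The array mTert 2 stood above the other 3, and without it the difference of 0.12 (SE 0.14) became -0.075. Gpx1, the main cytosolic form, had a difference of 0.04 (SE 0.09), Gpx7 of the endoplasmic reticulum 0.07 (SE 0.14) and Gpx3, the secreted form, 0.14 (SE 0.20). Gpx3 was lowest on control 2, at 407, against 535 to 589 on the other 3 arrays.

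The 9 glutathione transferases held the extremes of the list in mTert against control. Mgst3, a membrane-bound transferase and peroxidase, had 627 and 702 on mTert 1 and mTert 2, against 376 and 620.2 on control 1 and control 2. Its difference of 0.46 (SE 0.25) was set mainly by control 1, the array with 5 µg of cRNA, and was 0.10 without that array and 0.82 without control 2. Mgst1, a related enzyme of the endoplasmic reticulum and outer mitochondrial membrane, had 1434 and 1419 in mTert, against 1246 and 1243 in control. The means were 1427 ± 10.97 in mTert and 1244 ± 2.30 in control (SD, n = 2 each), a difference of 0.20 (SE 0.11) that stayed between 0.19 and 0.21 when any 1 array was left out. Both pairs of equal number gave a like value, at 0.20 for mTert 1 over control 1 and 0.19 for mTert 2 over control 2.

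Other transferases differed less or rested on 1 array. Gstp1, the pi-class enzyme, had 3827 and 3498 in mTert, against 3350 and 3429 in control, a difference of 0.11 (SE 0.09) with no overlap. Gsta4, which conjugates the lipid peroxidation product hydroxynonenal, had 302 and 485 on mTert 1 and mTert 2, against 446 and 494 on control 1 and control 2. Here mTert 1, called absent, was the low array, and without it the difference of -0.29 (SE 0.24) became 0.05. The remaining 5, Gstm1, Gstm2, Gstm5, Gsto1 and Gstt1, had overlapping groups and differences between -0.07 and 0.10.

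Between arrays numbered 2 and 1 the transferases went both ways. Gstt1, of the theta class, had 529 and 443 on mTert 2 and control 2, against 366 and 378 on mTert 1 and control 1, a difference of 0.38 (SE 0.15, limma adjusted p = 0.409). Gstm2, of the mu class, had 845 and 811 on mTert 2 and control 2, against 1036 and 991 on mTert 1 and control 1, a difference of -0.29 (SE 0.11, limma adjusted p = 0.382). For Gstm1 the corresponding value was -0.25 (SE 0.13), but another tested probe set stood at 0.09, and the mu-class genes are close relatives whose transcripts may share probes. Gsto1, of the omega class, had 2804 and 2653 on mTert 2 and control 2, against 2937 and 3405 on mTert 1 and control 1, a difference of -0.21 (SE 0.10) that ran from -0.32 to -0.11 with 1 array left out. Its other probe set had 2372 and 2589 against 3330.4 and 3127 in the same order, a difference of -0.38 (SE 0.09, limma adjusted p = 0.0976). Both Gsto1 probe sets had their 2 lower signals on the arrays numbered 2. Gsta4, low on mTert 1 alone, differed by 0.41 (SE 0.20), and by 0.13 to 0.70 with 1 array left out.

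Peroxiredoxins reduce peroxides through a reactive cysteine, and Prdx2, an abundant cytosolic form, gave the only call among these genes. Its probe set 1430979_a_at had 669 and 547 on mTert 2 and control 2, both called present, against 112 on mTert 1, called absent, and 149 on control 1, called marginal. The arrays numbered 2 lay at least 4.67-fold higher, a log2 difference of 2.22 (SE 0.20, limma adjusted p = 0.00178). Since neither array numbered 1 was called present, this probe set was tested only because of the arrays on which it was high. The other Prdx2 probe set, 1418506_a_at, had 3863 and 3328 on mTert 2 and control 2, against 3475 and 3552 on mTert 1 and control 1, a difference of 0.03 (SE 0.09). The 2 probe sets of this gene thus disagreed, and between mTert and control they stood at -0.06 and 0.09. Of 6 listed erythroid markers only 3 had a probe set, and these were called present on no array. The source of the signal of 1430979_a_at was not tested.

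**Figure D4:**
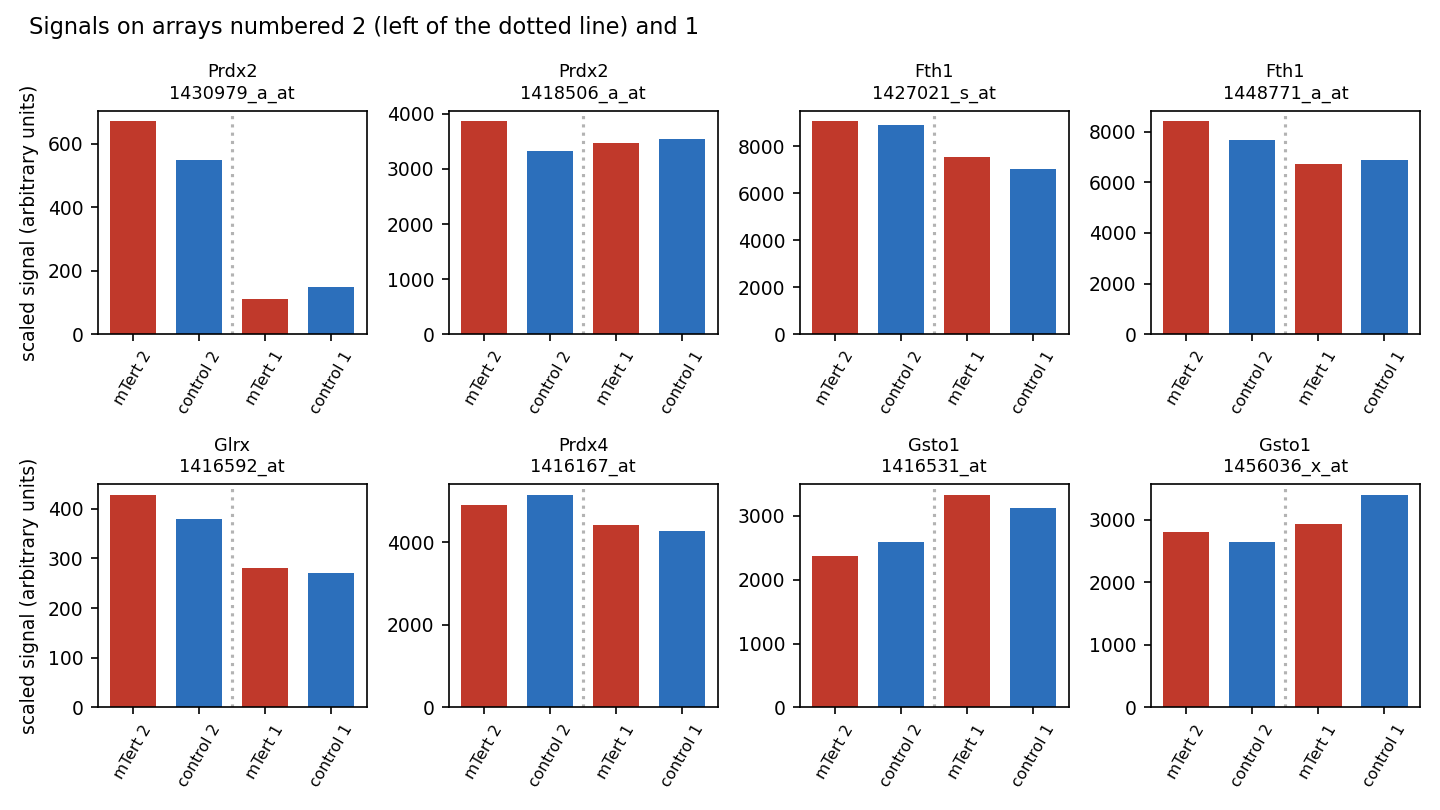
Bars are the scaled signals (arbitrary units, axes from 0) of 8 probe sets on each array, with the arrays numbered 2 left of the dotted line and those numbered 1 right of it (red for mTert, blue for control). The Prdx2 probe set 1430979_a_at has 669 and 547 on the left against 112 and 149 on the right, while the other Prdx2 probe set is level, Fth1, Glrx and Prdx4 are higher and Gsto1 lower on the left.

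The other peroxiredoxins were on the higher side on arrays numbered 2 without passing. Prdx4, the form of the endoplasmic reticulum, had 4899 and 5157 on mTert 2 and control 2, against 4429 and 4286 on mTert 1 and control 1, a difference of 0.21 (SE 0.07, limma adjusted p = 0.314). Prdx3, the mitochondrial form, had 952 and 974 on mTert 2 and control 2, against 823 on each array numbered 1, a difference of 0.23 (SE 0.11, limma adjusted p = 0.548). On these probe sets the arrays numbered 2 lay above those numbered 1, and the mTert and control signals overlapped, with differences of -0.01 for Prdx4 and -0.02 for Prdx3. The dimmer tested Prdx4 probe set overlapped between the numbers, with 451 and 359 on mTert 2 and control 2, against 332 and 420 on mTert 1 and control 1.

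Among the partners of these enzymes, Srxn1, the sulfiredoxin that restores overoxidised peroxiredoxins, had probe sets on both sides in mTert against control, at 0.03, -0.25 and 0.28. Glrx, the cytosolic glutaredoxin that removes glutathione from proteins, had 428 and 379 on mTert 2 and control 2, called present, against 280.4 and 269.9 on mTert 1 and control 1, called marginal and absent. It lay at least 1.47-fold higher on arrays numbered 2, a log2 difference of 0.55 (SE 0.15, limma adjusted p = 0.18), and also owed its place among the tested genes to the arrays on which it was high. Glrx2, the mitochondrial form, stood at 0.05 (SE 0.13) in mTert against control and -0.03 (SE 0.12) between the numbers.

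Metal-binding and iron-storing proteins behaved unlike each other. Mt1, a metallothionein that binds zinc and copper, had 3389 and 2897 on mTert 1 and mTert 2, against 3700.0 and 3218 on control 1 and control 2. The groups overlapped, with a difference of -0.14 (SE 0.12) that ran from -0.25 to -0.03 with 1 array left out, and arrays numbered 2 were lower than those numbered 1 by -0.21 (SE 0.09, limma adjusted p = 0.461). A second Mt1 probe set was called absent on all 4 arrays. Mt2, its neighbour and close relative, had 2782 and 2020.1 in mTert, against 2103 and 2782 in control. The high and low arrays were crossed between the groups: mTert 1 stood 1.32-fold above control 1, and mTert 2 stood at 0.726 of control 2. The resulting mean difference was -0.03 (SE 0.20), and the corresponding arrays of Mt1 were not crossed in this way.

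Fth1, the ferritin heavy chain that oxidises and stores iron, came nearest to a call among the probe sets with the highest mean. It had 9054 and 8907 on mTert 2 and control 2, against 7532 and 7024 on mTert 1 and control 1. The arrays numbered 2 lay above both others, with means of 8981 ± 104 and 7278 ± 359 (SD, n = 2 each), 1.23-fold, or 0.30 on the log2 scale (SE 0.06, limma adjusted p = 0.0701). With the mTert and control groups as a second term the limma adjusted p was 0.0307, a fit that called 3.11% of all genes, and with quantile normalization it was 0.153. The other Fth1 probe set had 8400.0 and 7672 against 6725 and 6874 in the same order, a difference of 0.24 (SE 0.07, limma adjusted p = 0.191). Between mTert and control Fth1 differed by 0.06 (SE 0.14). The first of these Fth1 probe sets and the tested Mt1 probe set are of the kind that can also bind similar transcripts. The same holds for the Gsto1, Gstm1 and Srxn1 probe sets with the highest mean and for the other Gclc probe set. Signals of such probe sets may not come from the named gene alone.

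Outside the list, 63 further genes of the same pathways were tested. They comprise NRF2 partners and targets, glutathione metabolism, other redox repair, metal handling and enzymes that produce superoxide or peroxide. In mTert against control limma called 0 of the 63, and 3, or 4.76%, had an unadjusted p under 0.05, against 2.19% of all genes. Pon2, a lactonase of membranes, had 90.8 and 100.9 on mTert 1 and mTert 2, against 143 and 177 on control 1 and control 2, a difference of -0.73 (SE 0.24). Mafk, a small partner of NRF2 in DNA binding, had 628 and 615 in mTert, against 780.1 and 767 in control, a difference of -0.32 (SE 0.13). Selenow, a small selenoprotein, had 4452 and 4040 in mTert, against 3437 and 3728 in control, a difference of 0.24 (SE 0.10). The mTert signals of Pon2 and Mafk lay below both controls and those of Selenow above both, each with a limma adjusted p of 1. The arrays did not overlap for 14 of the 63, or 22.2%, beside the 25.5% of all genes. Over the 63 genes 35 had a higher and 28 a lower mean in mTert. The split was 8 higher and 13 lower for NRF2 partners and targets, 9 and 5 for glutathione metabolism, 7 and 5 for redox repair, 6 and 4 for metal handling, and 5 and 1 for enzymes that produce oxidants.

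Between arrays numbered 2 and 1 limma called 1 of the 63 genes, beside 1.85% of all genes tested. The arrays did not overlap for 34 of the 63, or 54%, beside the 40.3% of all genes. Selenop, the plasma selenium carrier, had 3795 and 3712 on mTert 2 and control 2, against 2473 and 2534 on mTert 1 and control 1, and rose by 0.58 (SE 0.08, limma adjusted p = 0.011). Cyba, the membrane subunit of NADPH oxidases that phagocytes carry in quantity, had 2443 and 2076 on mTert 2 and control 2, against 1573 and 1474 on mTert 1 and control 1. Its difference was 0.56 (SE 0.11, limma adjusted p = 0.0541). Glo1, which clears methylglyoxal with glutathione, had 1868 and 1915 on mTert 2 and control 2, against 2482 and 2626 on mTert 1 and control 1, a difference of -0.43 (SE 0.09, limma adjusted p = 0.0646). The signals of these 3 genes did not overlap between the numbers. The summed macrophage markers were higher on arrays numbered 2, as Selenop and Cyba were, whereas Glo1 was lower. Their part in these values was not tested. With the mTert and control groups as a second term limma called 3 of the 63, beside 3.11% of all genes, since Cyba and Glo1 then passed too (adjusted p = 0.0108 and 0.0437).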

How the data were processed

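Labelled RNA of 4 samples was hybridised to Affymetrix MOE430A arrays. Per the file headers, the authors' files hold a linear intensity for each probe set, a present, marginal or absent call, and a detection p-value that was not used further. Intensities in the series table were identical. The sources used here do not give the software that summarised the probes. The number of arrays limits the precision.

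Each array was scaled to a common mean after trimming 2% of probe sets at each end and taken to log2, with 1 signal of 0 raised to the lowest signal called present there. The 64 control probe sets and those present on fewer than 2 arrays were left out, which left 12396. Symbols came from GEO's platform annotation. Groups, and arrays numbered 2 and 1, were each fitted as the only term with limma (version 3.58.1, R version 4.3.3) using lmFit and eBayes with an intensity trend. Counts of genes use the probe set with the highest mean. Where a group held no present call, the fold is a lower bound against its own signal or the lowest present signal of the array, whichever is higher.

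The genes named with values per array are Nfe2l2, Keap1, Hmox1, Nqo1, Mt1, Mt2, any called, and the 10 with the smallest p in each comparison, and of the other pathway genes the 3 with the smallest p and any called. Values of Sod1, of Gpx3 and of further probe sets were added after they were seen. Members and lists were chosen with earlier results of these data known. Deviations from the group means correlated at 0.373 between arrays of equal number, but 2 pairs are too few to treat the numbers as a pairing. The limma step was also run on simulated data with known changes. Their noise was drawn separately for each array, without the correlation between arrays of equal number. These runs therefore do not show how well the step finds changes in the measured arrays.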

Additional observations from a re-analysis of the deposited data

How the results depend on the processing

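With quantile normalization, a pseudocount of 50, no intensity trend, no filter on present calls, or probe sets present on all 4 arrays, 0 of these genes were called in either comparison by the probe set with the highest mean. The replicate block, which fits group and number together, called 18 probe sets in mTert against control, where the fit without it called 0, and none of the 33 genes. In number 2 against number 1 it called 353 probe sets, where the fit without it called 192, and 1 of the 33 genes, Fth1 (limma adjusted p = 0.0307). That count was 94 with no filter, 120 with probe sets present on all 4 arrays and 80 with no intensity trend. With 1 array left out it lay between 80 and 206. Counting every probe set gave 1 call, the dimmer Prdx2 probe set, which ran from 2.02 to 2.43 with 1 array left out. That probe set was tested only through the arrays on which it was high, and the brighter Prdx2 probe set stood at 0.03.

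With 1 array left out the median of the genes lay between -0.022 and 0.082 in mTert against control and between 0.0075 and 0.072 in number 2 against number 1. Such fits mix the groups with the numbers. The named differences that changed sign did so only with 1 array left out, and the cause was not tested. In mTert against control they ran from -0.040 to 0.061 for Nfe2l2, -0.15 to 0.15 for Nqo1, -0.26 to 0.20 for Mt2, -0.63 to 0.047 for Gsta4 and -0.075 to 0.31 for Gpx4. In number 2 against number 1 they ran from -0.038 to 0.061 for Nfe2l2, -0.019 to 0.12 for Keap1, -0.10 to 0.19 for Hmox1 and -0.26 to 0.20 for Mt2. Among those that kept their sign, Cat ran from 0.07 to 0.47, Gstp1 from 0.05 to 0.18, Keap1 from 0.04 to 0.14 and Prdx2 from 0.02 to 0.17 in mTert against control, and Gclc from -0.69 to -0.30 and Gstt1 from 0.25 to 0.51 in number 2 against number 1.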
